A study of Homo sapiens with 9 samples.

Results

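Genes that mark stem-like cells in colorectal cancer were measured in RNA-seq of HCT116, an established human colorectal carcinoma cell line. They were chosen by symbol from a list of 10 names, of which CD166 had no row of its own because it is another name of ALCAM, so 9 of the 60651 gene rows of the count table were members. These were CD44, PROM1, ALCAM, EPCAM, MSI1, MSI2, CD24, ALDH1A3 and LGR4, and all 9 passed the filter on low counts. The labels place the 9 libraries in 3 groups of 3. One group carried a short hairpin RNA that targets SLC6A3, which encodes the dopamine transporter, and received the solvent DMSO (shSLC6A3 DMSO). Cells with a control hairpin received a treatment that the labels abbreviate VXN and do not spell out (shCTRL VXN) or DMSO (shCTRL DMSO). The title of shCTRL VXN replicate 3 reads VNN, and its treatment label reads VXN. All 9 libraries are labelled with a wild-type genotype. By the group names, every group carries a hairpin in the same cell line. No label gives a dose, a time or the number of cultures or clones behind a group. Total counts lay between 30251364 and 60215785 per library. SLC6A3 itself had 3, 1 and 0 counts in shSLC6A3 DMSO replicates 1 to 3, 0, 3 and 2 counts in shCTRL VXN, and 6, 2 and 2 counts in shCTRL DMSO, too few to check the hairpin at this depth.

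Besides the counts there are 2 tables of comparisons by the authors, one of shCTRL V and one of shDAT D, each over shCTRL D, and these set other libraries against each other than the labels do. For both of the authors' deposited tables, a DESeq2 rerun matched each of the 38907 p-values to within 1e-06 when the following columns were used. Column shCTRL V held shSLC6A3 DMSO replicate 1 and the third libraries of shCTRL VXN and shCTRL DMSO, as labelled. Column shDAT D held those labelled shCTRL DMSO replicates 1 and 2 and shCTRL VXN replicate 1. Column shCTRL D held those labelled shSLC6A3 DMSO replicates 2 and 3 and shCTRL VXN replicate 2. The labelled groups gave 0 of these p-values for shCTRL V and 547 for shDAT D. Which source names the treatments rightly was not tested. Values are given below by table column, within it in the order of the labels shCTRL DMSO, shSLC6A3 DMSO and shCTRL VXN, and the labelled comparisons follow under their own names. No source used here says that replicates came from separate cultures, and p-values therefore measure spread among libraries that may be technical alone.

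Cancer stem cells are the fraction of a tumour held to renew it, and in colorectal cancer they are usually recognised by surface proteins that they share with cells of the intestinal crypt. CD44 is a receptor for hyaluronan and a WNT target. ALCAM (CD166) and EPCAM are adhesion molecules, CD24 is a small glycosylated surface protein, and PROM1 (CD133) is a pentaspan protein of membrane protrusions. MSI1 and MSI2, the Musashi proteins, bind mRNA and control its translation, ALDH1A3 oxidises retinaldehyde to retinoic acid, and LGR4 is a receptor for R-spondins, the secreted amplifiers of WNT signalling. Most of these markers are also made by ordinary epithelial cells, and HCT116 is a cell line rather than a tumour. The RNA level of the markers is therefore not a count of stem cells. In bulk RNA, fewer cells of a kind and less RNA per cell cannot be told apart.

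The genes fell into 4 patterns over the 9 libraries. ALDH1A3, MSI1, PROM1, CD44 and MSI2 were low in the 3 libraries of column shCTRL V, and ALCAM was high in the same 3. CD24 and LGR4 were high in 4 libraries that lie across the columns, and EPCAM was high in 2. The stretches of 250 bases upstream of the annotated start of ALDH1A3 and ALCAM, which moved in opposite directions, and of CD24 and LGR4, which share the pattern over 4 libraries, are given here from RefSeq on GRCh38.p14. They are the windows at chr15:100879581-100879830 (plus strand), chr3:105366659-105366908 (plus strand), chr6:106975628-106975877 (minus strand, the most upstream of 3 CD24 windows) and chr11:27472791-27473040 (minus strand), each read 5′ to 3′ along the gene. Capitals mark matches on either strand to the GC box, spelled GGGCGG, or to the promoter element known as the CCAAT box, spelled as it is named.
ALDH1A3: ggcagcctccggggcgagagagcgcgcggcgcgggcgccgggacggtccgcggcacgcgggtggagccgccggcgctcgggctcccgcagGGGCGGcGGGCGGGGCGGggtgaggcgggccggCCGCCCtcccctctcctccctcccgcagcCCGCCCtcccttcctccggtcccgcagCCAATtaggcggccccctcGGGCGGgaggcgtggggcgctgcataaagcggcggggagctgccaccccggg
ALCAM: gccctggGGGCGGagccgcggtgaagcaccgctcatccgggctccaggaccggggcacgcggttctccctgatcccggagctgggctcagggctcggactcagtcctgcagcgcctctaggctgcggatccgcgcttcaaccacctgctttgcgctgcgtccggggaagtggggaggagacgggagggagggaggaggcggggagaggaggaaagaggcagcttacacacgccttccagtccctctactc
CD24: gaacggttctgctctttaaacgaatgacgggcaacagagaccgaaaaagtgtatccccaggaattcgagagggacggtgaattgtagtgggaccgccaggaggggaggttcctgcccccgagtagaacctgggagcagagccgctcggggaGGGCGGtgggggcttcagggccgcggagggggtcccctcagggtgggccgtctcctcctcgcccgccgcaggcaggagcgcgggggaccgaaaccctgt
LGR4: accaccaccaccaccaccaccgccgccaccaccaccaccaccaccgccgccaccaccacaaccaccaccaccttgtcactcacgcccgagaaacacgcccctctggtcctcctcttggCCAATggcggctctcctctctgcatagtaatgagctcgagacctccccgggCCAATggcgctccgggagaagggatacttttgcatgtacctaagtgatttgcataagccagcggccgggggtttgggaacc

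The ALDH1A3 window held 6 GC boxes, of which the second and the third overlap, and 1 CCAAT box at -71 to -67 from the RefSeq start. In the annotation GENCODE v29, used below for positions, ALDH1A3 starts upstream of that, at 100877714, so its window falls inside the gene. ALCAM held 1 GC box and no CCAAT box, this CD24 window 1 GC box at -99 to -94, and LGR4 a pair of CCAAT boxes at -132 to -128 and -81 to -77 with no GC box. Of all 35116 RefSeq windows of this length, 42.6% held GGGCGG and 32.0% held CCAAT. No match was found in these 4 windows to TGANTCA, the AP-1 site, which 6.57% of all windows held. The same was true of CTTTGAT, the site of the WNT effector TCF, held by 2.26% of windows. Nor was there a match to CACGTG, the E-box bound by MYC, held by 6.34% of windows, or to TATAAA, the core of the TATA box, held by 10.7%. This says only that these letters are not there. Among the other members' windows, 1 of 4 for PROM1 (chromosome 4, 16076119 to 16076368, minus strand) held the AP-1 letters at -189 to -183 and the TCF letters at -179 to -173. G and C made up 82.4% of the ALDH1A3 window, 68.8% of ALCAM, 65.6% of CD24 and 62.0% of LGR4, against a median of 58.0%. Of the 9 members, 7 had a window in the RefSeq table.

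Levels between genes were compared per kilobase of exon (RPKM, with the union of GENCODE v29 exons as length). EPCAM was the most abundant member by this measure, at a mean of 140.4 RPKM over the 9 libraries. It was followed by ALDH1A3 at 64.8, CD44 at 52.2 and ALCAM at 26.5 RPKM. MSI1 averaged 9.46 RPKM, MSI2 8.10, CD24 4.97, PROM1 4.43 and LGR4 2.45 RPKM. This order depends on the length used, which takes in the exons of all annotated transcripts. That length was 21479 bases over 19 transcripts for MSI2 and 3090 bases over 3 transcripts for MSI1. Before division by length, MSI2 averaged 174 CPM (counts relative to library size) and MSI1 29.2 CPM. Which transcripts were present was not tested, so the order of RNA molecules may differ from that by RPKM. The library range of EPCAM (128 to 160.3 RPKM) overlapped with no other. That of ALDH1A3 (31.0 to 88.8 RPKM) overlapped with CD44 (39.8 to 61.7 RPKM) and ALCAM (19.9 to 38.1 RPKM), and from MSI1 down to LGR4 (1.75 to 3.34 RPKM) each range overlapped with the next in the order. Ranges spanned 2.87-fold from the lowest to the highest library for ALDH1A3, 2.12-fold for CD24, 1.92-fold for ALCAM, 1.91-fold for LGR4 and 1.26-fold for EPCAM.

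The libraries were epithelial by their markers. KRT8 lay between 1751 and 2022 CPM (counts relative to library size, scaled by TMM), although 2 of 10 colon epithelial markers, VIL1 and TSPAN8, stayed below 1 CPM in every library. Of 13 leukocyte and endothelial markers, 11 or 12 were below 1 CPM in each library, with PTPRC at no more than 0.07 CPM and MS4A1 at 0. Of 10 mesenchymal and fibroblast markers, 7 or 8 were below 1 CPM, and COL1A1 lay between 18.9 and 47.5 CPM. The summed level of 8 markers of dividing cells was 283 to 326 CPM in column shCTRL V, 1656 to 1782 CPM in shDAT D and 1761 to 1944 CPM in shCTRL D.

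**Figure D1:**
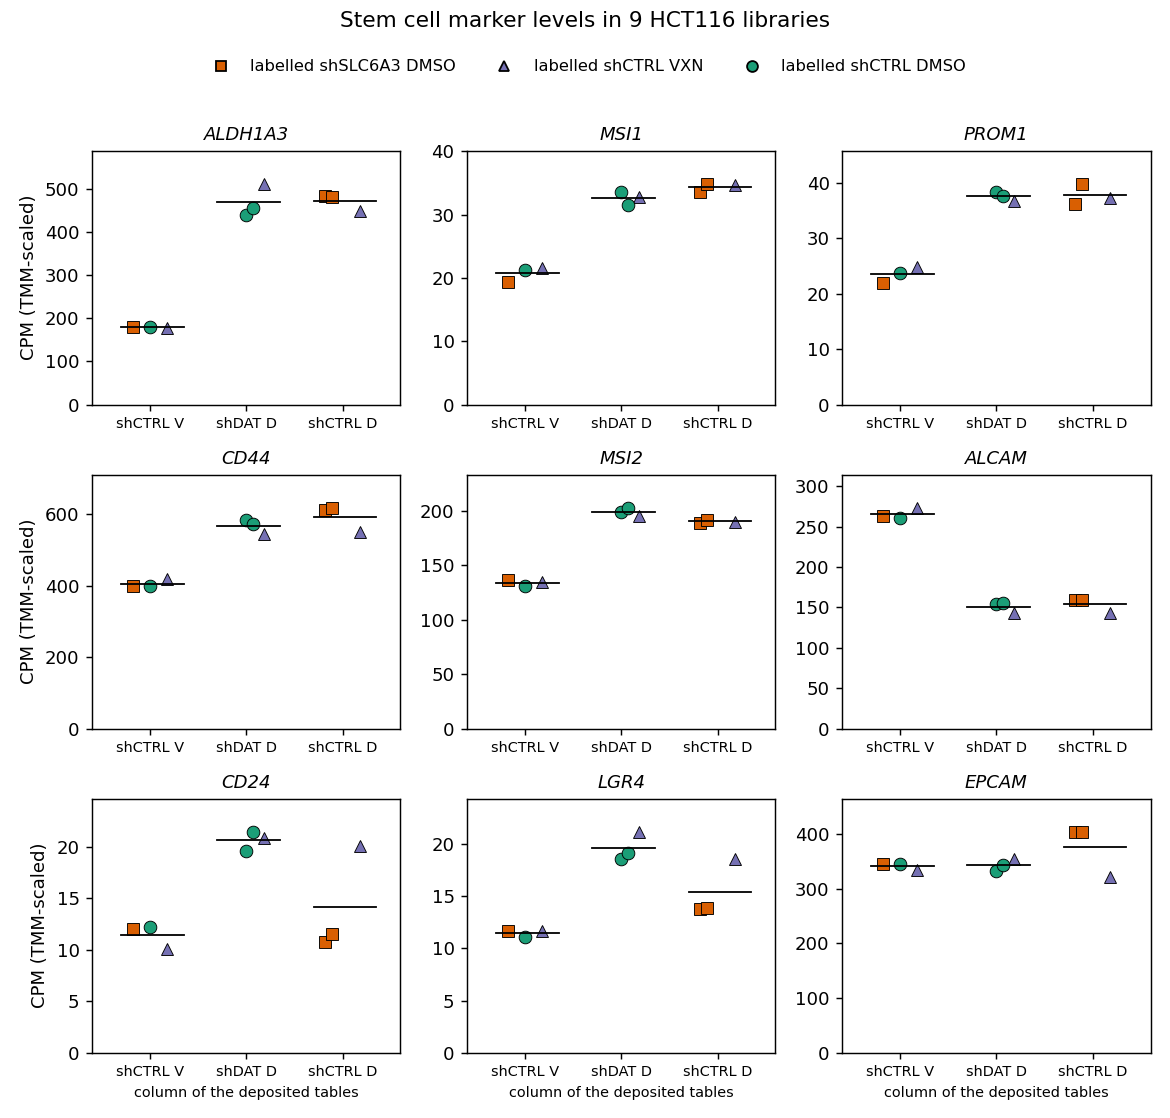
Level of each marker in CPM (linear axis from 0) in the 9 libraries, placed by column of the deposited tables, with symbols for the labelled group and a line at the mean of each column. The shCTRL V libraries are the lowest for ALDH1A3 (179 to 181 CPM) and the highest for ALCAM (261 to 273 CPM), and for CD24 and LGR4 the library labelled shCTRL VXN replicate 2 sits apart from the other 2 of column shCTRL D.

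In shCTRL V against shCTRL D, 6 markers fell and 1 rose. ALDH1A3 fell most, MSI1, PROM1, CD44 and MSI2 fell to between 0.596-fold and 0.692-fold, LGR4 fell less, and ALCAM rose. The authors' deposited table called 7 of the 9 members at an adjusted p below 0.05, where 44.0% of all 24274 features with an adjusted p were called (22.7% lower and 21.4% higher). With a mean of 10 CPM or more, as all members have, 66.5% were called (35.8% lower and 30.7% higher). The members' median log2 fold change was -0.53, against -0.0016 over all those features. Ranges of CPM did not overlap between the columns for the same 7 members, and for 60.4% of all 20402 features that passed the filter (28.8% lower and 31.6% higher).

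Among the surface proteins, CD44 (ENSG00000026508.20, GRCh38 chromosome 11, 35138870 to 35232402, plus strand) stood at 400.0, 398 and 418 CPM in shCTRL V and at 612, 617 and 549.9 CPM in shCTRL D. Every shCTRL V library was below every shCTRL D library. The authors' deposited table gave a log2 fold change of -0.58 (SE 0.07), or 0.671-fold, with an adjusted p of 4.52e-14 from DESeq2. The table counts CD44 as 1 gene, so its variant isoforms, which are linked to stemness in this tissue, were not separated.

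PROM1 (ENSG00000007062.12, chromosome 4, 15963076 to 16084378, minus strand) had 23.7, 21.9 and 24.8 CPM in shCTRL V, against 36.2, 39.8 and 37.2 CPM in shCTRL D. The columns did not overlap, and the change was -0.70 (SE 0.08, adjusted p = 2.10e-17 by DESeq2) in the authors' deposited table. ALCAM (ENSG00000170017.12, chromosome 3, 105366909 to 105576900, plus strand) went the other way. It was at 261, 264 and 273 CPM in shCTRL V and at 159.8, 159 and 143 CPM in shCTRL D. The authors' deposited table gave 0.76 (SE 0.08), or 1.69-fold, with an adjusted p of 4.34e-23 from DESeq2, the only rise among the members called.

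EPCAM (ENSG00000119888.11, chromosome 2, 47345158 to 47387601, plus strand) had 344, 345 and 334 CPM in shCTRL V, against 404, 403 and 322 CPM in shCTRL D. The shCTRL D libraries lay on both sides of the shCTRL V libraries, and the change of -0.18 (SE 0.10) was not called in the authors' deposited table (adjusted p = 0.158, DESeq2). CD24 (ENSG00000272398.6, chromosome 6, 106969831 to 106975627, minus strand) was at 12.2, 11.96 and 10.1 CPM in shCTRL V and at 10.8, 11.5 and 20.0 CPM in shCTRL D. It was not called either, at -0.29 (SE 0.19, adjusted p = 0.171, DESeq2) in the authors' deposited table. CD24 has processed pseudogenes, and the 3 listed under its name, CD24P1, CD24P2 and CD24P4, had 0 counts in all libraries, so how reads of these copies were assigned cannot be seen.

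Both Musashi genes fell. MSI1 (ENSG00000135097.7, chromosome 12, 120341330 to 120369180, minus strand) had 21.2, 19.4 and 21.6 CPM in shCTRL V, against 33.6, 34.9 and 34.6 CPM in shCTRL D. MSI2 (ENSG00000153944.12, chromosome 17, 57255851 to 57684685, plus strand) had 130.4, 136 and 134 CPM in shCTRL V, against 189, 191 and 189.8 CPM in shCTRL D. For neither gene did the columns overlap. The authors' deposited table gave -0.75 (SE 0.08, adjusted p = 4.26e-22) for MSI1 and -0.53 (SE 0.05, adjusted p = 4.45e-26) for MSI2, both by DESeq2.

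The enzyme ALDH1A3 (ENSG00000184254.17, chromosome 15, 100877714 to 100916626, plus strand) had the largest change of the 9. It stood at 180.5, 181 and 179 CPM in shCTRL V and at 484, 481 and 449 CPM in shCTRL D. The 3 shCTRL V values lay within 3 CPM of each other and far below the shCTRL D values, and the authors' deposited table gave -1.42 (SE 0.08), or 0.374-fold, with an adjusted p of 2.08e-76 from DESeq2. An antisense gene and a same-strand transcript share exon bases with ALDH1A3, and the counts listed for them in the table equal 0.528% and 2.97% of its own. Nothing here states whether counting used strand. The receptor LGR4 (ENSG00000205213.14, chromosome 11, 27365961 to 27472775, minus strand) had 11.1, 11.7 and 11.7 CPM in shCTRL V, against 13.8, 13.9 and 18.6 CPM in shCTRL D. It was called lower at -0.43 (SE 0.12, adjusted p = 0.000918, DESeq2) in the authors' deposited table, with 1 shCTRL D library well above the other 2.

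All 7 calls held in DESeq2 reruns that left out any 1 of the 6 libraries. EPCAM was also called lower without the library labelled shCTRL VXN replicate 2 (-0.28, adjusted p = 1.19e-10, DESeq2), and CD24 without shSLC6A3 DMSO replicate 2 (-0.48, adjusted p = 0.0278, DESeq2), while without shCTRL VXN replicate 2 CD24 stood at -0.0049. All 8 markers of dividing cells were lower in the same comparison, with a median log2 fold change of -2.46 in the authors' deposited table, and their part in the members' changes was not tested. The 10 epithelial markers, EPCAM among them, summed to 5126 to 5281 CPM in shCTRL V and 4332 to 4629 CPM in shCTRL D.

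**Figure D2:**
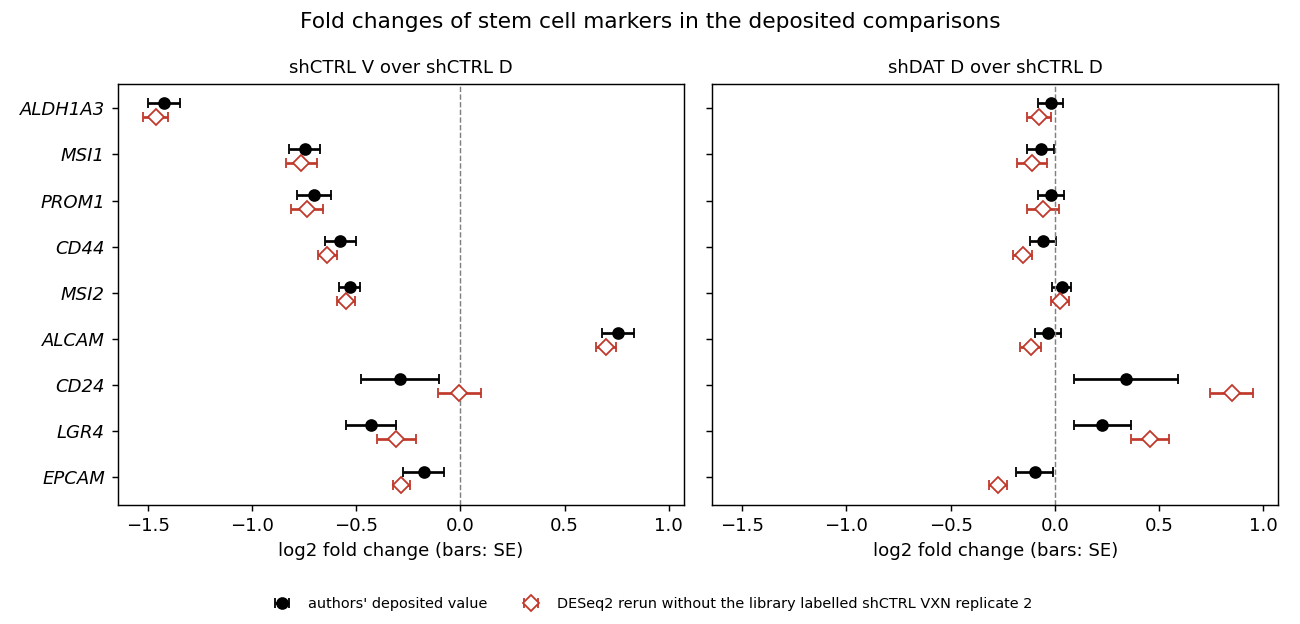
Log2 fold change of each marker in the 2 deposited comparisons, with bars for the SE. Black points are the authors' deposited values. Open red diamonds are an unshrunken DESeq2 rerun (values not pulled towards 0) without the library labelled shCTRL VXN replicate 2. In shDAT D over shCTRL D the diamonds stand at 0.85 for CD24 and 0.46 for LGR4. An unshrunken rerun with all 9 libraries gave 0.53 and 0.32 there. Diamonds of ALDH1A3, MSI1, PROM1, MSI2, CD44 and ALCAM lie within 0.1 of the deposited values.

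In shDAT D against shCTRL D, the comparison of the dopamine transporter hairpin as the authors' table names it, no marker was called. The authors' deposited table called 0 of 9 members at an adjusted p below 0.05, where 6.62% of 10403 features with an adjusted p were called (5.62% lower). At an unadjusted p below 0.05 were 2 of 9 members, CD24 and LGR4, and 3185 of those 10403 features, a larger share. edgeR on the same columns called 0 members and 0 features, and without the filter on low counts it called CD24. Ranges did not overlap between the columns for 3 members (LGR4 and MSI2 higher, MSI1 lower) and for 18.8% of all features (8.85% higher and 9.96% lower). The 2 comparisons share the shCTRL D libraries.

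CD24 had the largest deposited change. It was at 19.6, 21.4 and 20.9 CPM in shDAT D, against 10.8, 11.5 and 20.0 CPM in shCTRL D. The shDAT D libraries and the library labelled shCTRL VXN replicate 2 lay together near 20 CPM, and the other 2 shCTRL D libraries at about the level of the shCTRL V libraries. The authors' deposited table gave 0.34 (SE 0.25, adjusted p = 0.0619, DESeq2). LGR4 was high in the same 4 libraries, with 18.6, 19.1 and 21.2 CPM in shDAT D and 13.8, 13.9 and 18.6 CPM in shCTRL D. Unlike CD24, its 13.8 and 13.9 CPM lay above all shCTRL V libraries (11.1 to 11.7 CPM). The deposited change of LGR4 was 0.23 (SE 0.14, adjusted p = 0.0680, DESeq2) in the authors' deposited table.

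Whether members were called depended on a single library. Without shCTRL VXN replicate 2, a DESeq2 rerun called 4 members, CD24 at 0.85 (SE 0.10, adjusted p = 2.21e-15) and LGR4 at 0.46 (SE 0.09, adjusted p = 3.87e-06) higher, EPCAM at -0.27 (SE 0.04, adjusted p = 1.78e-09) and CD44 at -0.15 (SE 0.05, adjusted p = 0.00290) lower. Of all features, 37.5% were called in that rerun, so 4 of 9 is near the background. These rerun values are unshrunken, unlike the deposited ones. With all 9 libraries the unshrunken rerun gave 0.53 for CD24, 0.32 for LGR4, -0.16 for EPCAM and -0.09 for CD44. Leaving out any other library of the 6 called 0 members and at most 0.421% of all features, so those reruns say little about the markers in particular. In the rerun without shCTRL VXN replicate 2, 7 of the 8 markers of dividing cells were lower and 0 higher, and their part was not tested. CD68, at 6.31 to 6.72 CPM in the 4 libraries with high CD24 and at 3.27 to 3.60 CPM in the other 5, moved with them. The summed leukocyte and endothelial list stood at 8.81 to 9.50 against 4.73 to 5.44 CPM, but CD68 made up most of that sum in every library. PTPRC and CD3E were at or near 0 in all 9. Without shCTRL VXN replicate 2, 4 of 5 leukocyte and endothelial markers tested were higher and 0 lower, so CD68 was not alone. Of the mesenchymal markers, 2 of 4 tested were higher in that rerun, and COL1A1 was at 34.1, 32.0 and 37.1 CPM in shDAT D, against 18.9, 20.3 and 35.8 CPM in shCTRL D. The part of CD68 and of these markers in the result was not tested.

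EPCAM was at 333, 343 and 355 CPM in shDAT D and at 404, 403 and 322 CPM in shCTRL D. Its lowest and its 2 highest libraries were all in column shCTRL D, and the authors' deposited table gave -0.10 (SE 0.09, adjusted p = 0.248, DESeq2). The other 6 members differed by less than the error allows to call. ALDH1A3 had 441, 457 and 512 CPM in shDAT D, against 484, 481 and 449 CPM in shCTRL D, ranges that overlap. Its deposited change was -0.018 (SE 0.060) in the authors' deposited table, and those of CD44, PROM1, ALCAM, MSI1 and MSI2 lay between -0.07 and 0.03 there.

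Between the labelled groups, no marker was called. edgeR called 0 members and 0 of 20402 features for shSLC6A3 DMSO against shCTRL DMSO (a background of 0%, with 930 features at an unadjusted p below 0.05 and 0 called by DESeq2). For shCTRL VXN against shCTRL DMSO it called 0 members and 0.00980% of features. No member reached an unadjusted p below 0.05 in either comparison. Each labelled group holds 1 library of column shCTRL V, and the spread within groups was wide for the members that differ there. ALDH1A3 averaged 382 ± 174 CPM in shSLC6A3 DMSO, 380.1 ± 177 CPM in shCTRL VXN and 359.7 ± 155 CPM in shCTRL DMSO (SD, n = 3 each).

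CD24 had the smallest unadjusted p of the members for the SLC6A3 hairpin as labelled (0.067, edgeR). It was at 11.96, 10.8 and 11.5 CPM in shSLC6A3 DMSO replicates 1 to 3, against 19.6, 21.4 and 12.2 CPM in shCTRL DMSO. All 3 shSLC6A3 libraries were below all 3 controls, the lowest control by less than 1 CPM. edgeR gave -0.64 (SE 0.30) with an adjusted p of 0.978, which was also the smallest over all features tested. EPCAM had 345, 404 and 403 CPM in shSLC6A3 DMSO, against 333, 343 and 344 CPM in shCTRL DMSO, a change of 0.18 (SE 0.10, adjusted p = 0.978, edgeR) with ranges that lay side by side without overlap. These were the 2 members without overlap, where 8.83% of all features had none (4.02% higher and 4.81% lower). For shCTRL VXN all 9 members overlapped with shCTRL DMSO (6.35% of features did not, 3.31% higher and 3.03% lower), and log2 fold changes lay between -0.06 and 0.08.

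**Figure D3:**
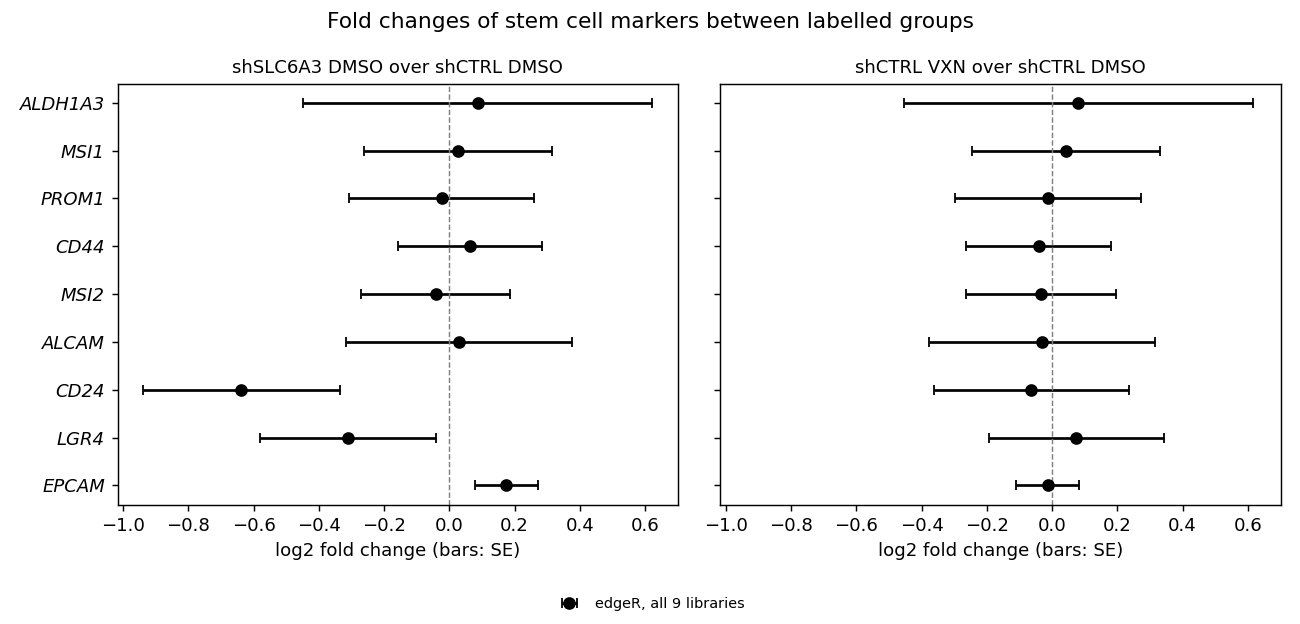
Log2 fold change of each marker between the labelled groups from edgeR on all 9 libraries, with bars for the SE. For shSLC6A3 DMSO the lowest point is CD24 at -0.64, and for shCTRL VXN all 9 points lie between -0.06 and 0.08.

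Members were compared by the root mean square difference of log2 CPM, centred over the 9 libraries, a description of likeness with no test. PROM1 and MSI1 were the closest pair, at 0.044, and each was the other's nearest of 9959 genes with a symbol and a mean of at least 10 CPM. CD44 and MSI2 followed at 0.074, and CD24 and LGR4 were 0.182 apart. Outside the list, CD44 was nearest to NONO, STXBP4 and CNOT9 (0.032 to 0.036), PROM1 also to PDE7A and IDH3B (0.049 and 0.054), MSI1 to TCF3 and NBL1 (0.045 and 0.047), and MSI2 to RBBP4, LRRK1 and ASAP1 (0.025 to 0.031). ALDH1A3 was nearest to DONSON, NFIA and ASRGL1 (0.054 to 0.061), ALCAM to ZNF655, EBLN3P and PHLDA2 (0.039 to 0.041), and EPCAM to TMX1, MRPL45 and SPRYD7 (0.023 to 0.030). CD24 was nearest to ISG15, STN1 and DDX60L (0.094 to 0.118), and LGR4 to DHTKD1, CDK18 and RAB27A (0.051 to 0.065).

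Genes around the markers were counted in the same tables, read against the 44.0% of features called in shCTRL V over shCTRL D. Many list genes have a mean of at least 10 CPM, and of features at that level 66.5% were called. Of 20 other intestinal and colorectal stem cell genes, 13 had an adjusted p, and the authors' deposited table had 6 lower and 3 higher (median -0.14). LGR5, the R-spondin receptor that marks crypt base stem cells, had at most 1 count in any library, and ASCL2 had no count. The telomerase gene TERT at -3.97 (SE 0.31), the receptor gene TNFRSF19 at -2.94 (SE 0.38) and CDCA7, a MYC-regulated nuclear protein, at -2.61 (SE 0.16) were lower in the authors' deposited table, and the complement regulator CD55 was higher at 0.99 (SE 0.11). Of 10 pluripotency factors, 7 had an adjusted p and 3 were lower and 0 higher there (median -0.74), of which MYC, at -0.82 (SE 0.08) in the authors' deposited table, was the one above 1 CPM. A single factor was lower without shCTRL VXN replicate 2 (and 1 higher), without shCTRL VXN replicate 3 and without shCTRL DMSO replicate 3.

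Around LGR4, the authors' deposited table had 7 of 19 R-spondin, WNT receptor and Dishevelled genes lower and 5 higher (median -0.07). Only 3 were higher without shSLC6A3 DMSO replicate 2, and likewise without shCTRL VXN replicate 3. The WNT receptors FZD3 at -0.87 (SE 0.10) and FZD4 at -0.93 (SE 0.14) were lower and FZD6 at 0.56 (SE 0.07) higher there, as was the signal transducer DVL3 at 0.33 (SE 0.06, authors' deposited table). Around ALDH1A3, 7 of 25 aldehyde dehydrogenase and retinoid genes were lower by the authors' deposited table and 4 higher (median -0.15). The mitochondrial ALDH1B1 at -1.02 (SE 0.05), ALDH7A1, an enzyme of lysine breakdown, at -0.95 (SE 0.06), and CRABP2, which carries retinoic acid to the nucleus, at -1.54 (SE 0.10) were lower, and ALDH2, the main enzyme of acetaldehyde oxidation, was higher at 0.94 (SE 0.14), by the authors' deposited table. In shDAT D over shCTRL D, ALDH3A2 at -0.39 (SE 0.18) and ALDH16A1 at -0.34 (SE 0.14) were the 2 of 19 called in the authors' deposited table, where 6.62% of features were. DESeq2 reruns without any 1 library other than shCTRL VXN replicate 2 called 0 genes of this list, and at most 0.421% of all features.

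Of the 9 lists, CD44 partners had the largest share of genes called, with 9 of 21 lower by the authors' deposited table and 10 higher (median -0.06). HAS3, a synthase of hyaluronan, the CD44 ligand, was lower at -2.31 (SE 0.11), and so was RDX, which ties CD44 to actin, at -0.58 (SE 0.06, authors' deposited table). The other listed linkers were divided. EZR had 2752 to 2904.5 CPM in shCTRL V against 2251 to 2407.5 CPM in shCTRL D, and MSN 365 to 388 against 264 to 289 CPM. NF2 had 62.6 to 66.6 against 91.3 to 94.7 CPM. The sheddase ADAM17 at 1.10 (SE 0.10) and ESRP1, a splicing factor that promotes inclusion of CD44 variant exons, at 1.12 (SE 0.07) were higher in the authors' deposited table. EPCAM partners and family had 8 of 11 higher and 0 lower there (median 0.55), among them E-cadherin (CDH1) at 1.04 (SE 0.07), CLDN7, a claudin that binds EPCAM, at 0.76 (SE 0.09), and the protease inhibitors SPINT1 at 0.55 (SE 0.06) and SPINT2 at 0.47 (SE 0.07), each a value of the authors' deposited table. ST14, the protease these inhibit, was the 1 of 10 called for shDAT D, at -0.50 (SE 0.17, authors' deposited table). It was not called in those same 5 reruns, which called at most 0.421% of all features.

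Of 14 Musashi target and Notch genes, 3 were lower by the authors' deposited table and 3 higher (median 0.04). NUMB, a Notch inhibitor whose mRNA MSI1 represses, was at 0.49 (SE 0.06) and HEY1, a Notch target, at 2.10 (SE 0.29), while the ligand gene JAG2 was at -1.12 (SE 0.06) and HES4 at -1.29 (SE 0.15), by the authors' deposited table. Other surface markers used to sort tumour-initiating cells had 4 of 12 lower by the authors' deposited table and 6 higher (median 0.09). CD47, which inhibits phagocytosis, was at -0.96 (SE 0.10), the drug exporter ABCG2 at -1.36 (SE 0.21), the adhesion molecule L1CAM at 1.06 (SE 0.16) and NT5E (CD73) at 0.97 (SE 0.21) there. NT5E was also the 1 of 6 called for shDAT D, at -0.63 (SE 0.23) in the authors' deposited table. Intestinal differentiation markers had 2 of 4 lower, CA2 at -1.64 (SE 0.09) and KRT20 at -0.76 (SE 0.27), and 0 higher in the authors' deposited table (median -0.47). SOX9 was the 1 of 9 other stem cell genes called for shDAT D, at -0.40 (SE 0.17, authors' deposited table), and no gene of the R-spondin, CD44 partner, Musashi, pluripotency or differentiation lists was called there. Against the 6.62% of features called in this comparison, these calls were 5 genes over 4 lists (2 of 19, 1 of 9, 1 of 10 and 1 of 6). The other lists had 0 of 15, 18, 11, 2 and 2, so the share over all lists was near that background. DESeq2 reruns without any 1 library other than shCTRL VXN replicate 2 called 0 genes of the 4 lists, and at most 0.421% of all features. Without shCTRL VXN replicate 2, where 37.5% of all features were called, the DESeq2 rerun called 4 higher and 10 lower of 21 CD44 partners, 4 higher and 6 lower of 23 aldehyde and retinoid genes, 3 higher and 5 lower of 18 R-spondin and WNT receptor genes, and 3 higher and 4 lower of 13 other stem cell genes. It called 1 higher and 4 lower of 11 EPCAM partners, 3 higher and 3 lower of 14 Musashi and Notch genes, 3 higher and 3 lower of 11 surface markers, 2 higher and 0 lower of 5 pluripotency factors, and 1 higher and 0 lower of 3 differentiation markers. Between the labelled groups, edgeR called 0 genes of any of these lists.

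**Figure D4:**
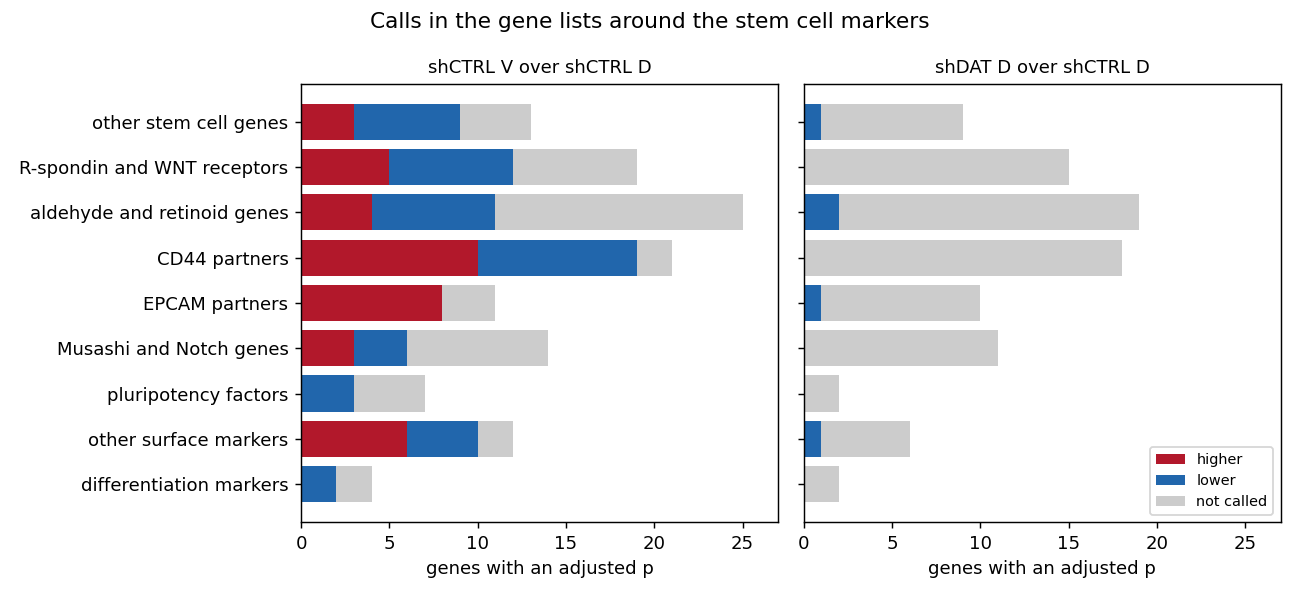
Number of genes with an adjusted p in each list around the markers that were higher, lower or not called in the authors' deposited tables, shCTRL V over shCTRL D at left and shDAT D over shCTRL D at right. The EPCAM partner list at left has 8 higher and 0 lower, and CD44 partners have 10 higher and 9 lower.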

How the data were processed

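RNA from 9 HCT116 libraries was sequenced, and the submitters' processing notes name fastp 0.20.1, FastQC 0.11.9, STAR (no version), DESeq2 1.34.0 and GRCh38. No source used here names the counting program or the annotation release. The table deposited by the authors holds raw counts per gene and repeat subfamily. Each comparison deposited by the authors gives log2 fold changes, p-values (raw and adjusted) and a base mean, a signal averaged over normalised libraries. For shDAT D, the fold change deposited by the authors was smaller than that of an unshrunken rerun for CD24 (0.34 against 0.53), with the same p-values. The same held in size for LGR4 (0.23 against 0.32), EPCAM (-0.10 against -0.16) and CD44 (-0.06 against -0.09).

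For the labelled groups, edgeR 4.0.16 was run (quasi-likelihood, TMM, filterByExpr; R 4.3.3) over 20402 features, adjusted by Benjamini-Hochberg, called below 0.05. SE was the fold change over the root of F. CPM used TMM over all 9 libraries. DESeq2 1.42.0 served for reruns. The fits were tested on simulated data. Positions and exon lengths came from GENCODE v29 on GRCh38, which is not shown to be the authors' release. From each list, up to 4 called genes (shCTRL V) and 2 (shDAT D) with at least 1 CPM and the smallest adjusted p were named. Members, lists and tests were chosen with earlier results of these data known. Counts of list genes without each library were added after seeing the data. Replicate numbers did not pair the libraries: correlations of same-numbered libraries' deviations ran from -0.836 to 0.961.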

Additional observations from a re-analysis of the deposited data

How the results depend on the processing

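The 7 calls in shCTRL V over shCTRL D kept their direction and stayed called with edgeR, without a filter, with library totals alone and without any 1 library (7 or 8 members and 9300 to 11490 features called). In shDAT D over shCTRL D, leaving out 1 library gave 0 to 4 members and 0 to 7890 features, edgeR gave 0 features in place of 689, and edgeR without a filter called 1 member. For shCTRL VXN, the 2 features called by edgeR (MIR6797 and MIR6856, named after their values were seen) became 18 with DESeq2 and 0 without a filter, with the replicate block, with only the 6 libraries compared and without any 1 library. The replicate block gave 0 members called in both labelled comparisons and moved PROM1 for shSLC6A3 DMSO to 0.0024. No label says what a replicate number shares. Uncalled values changed sign as follows. For shSLC6A3 DMSO, PROM1 was at 0.0051 with DESeq2, and with library totals ALCAM was at -0.0053 and MSI1 at -0.017. For shDAT D with library totals, PROM1 was at 0.020, ALCAM at 0.0027 and ALDH1A3 at 0.022. Without 1 library, the log2 fold changes for shSLC6A3 DMSO ran from -0.093 to 0.24 for CD44, -0.22 to 0.20 for PROM1, -0.26 to 0.33 for ALCAM, -0.15 to 0.25 for MSI1, -0.22 to 0.10 for MSI2 and -0.23 to 0.43 for ALDH1A3. For shCTRL VXN they ran from -0.20 to 0.076 for CD44, -0.21 to 0.15 for PROM1, -0.42 to 0.27 for ALCAM, -0.054 to 0.018 for EPCAM, -0.14 to 0.23 for MSI1, -0.21 to 0.12 for MSI2, -0.27 to 0.20 for CD24, -0.24 to 0.42 for ALDH1A3 and -0.14 to 0.29 for LGR4. For shDAT D they ran from -0.10 to 0.011 for ALDH1A3 and -0.057 to 0.014 for PROM1. The cause was not tested. Each member had at least 459 counts in every library. Estimates from 3 libraries a group are imprecise, and each labelled group held 1 library of column shCTRL V. The part of depth, of group size and of this mix was not tested.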
